A study of Homo sapiens with 8 samples.

Results

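Integrins are adhesion receptors built from 1 alpha and 1 beta subunit, and tensins are adaptor proteins that join the tails of the beta subunits to actin. The mRNAs of 10 such genes were followed in HT29 cells, a colorectal cancer line, with and without the MEK inhibitor selumetinib. They are the alpha subunits ITGA2, ITGA3, ITGA6 and ITGAV, the beta subunits ITGB1, ITGB4, ITGB5 and ITGB6, and the tensins TNS3 and TNS4, 10 of the 38148 genes in the deposited table. All 10 were found by their symbols and all 10 passed the filter on low values. They were chosen by symbol from a list drawn up with the log2 values of these same 8 libraries known, so their differences are a description, and no p-value is given for them.

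The cells were either left untreated or exposed to 1 µM selumetinib for 24 h. They were detached with trypsin, fixed with glyoxal, stained for the G2 cyclin CCNB1 and flow-sorted into a CCNB1-positive and a CCNB1-negative fraction. Each of the 4 groups has 2 libraries of polyadenylated RNA, written below as untreated negative, untreated positive, selumetinib negative and selumetinib positive. All groups share one established cell line, and no source used here says that the 2 libraries of a group came from separate cultures, so the spread given may be technical.

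For all 8 libraries, title and description disagree on both the treatment and the fraction, and the table's columns carry the names in the descriptions. The descriptions were followed. CCNB1 mRNA had a log2 value of 11.83 ± 0.25 (SD, n = 2) in untreated negative libraries and 13.92 ± 0.19 in untreated positive libraries. It stood at 7.57 ± 0.49 in selumetinib negative and 12.65 ± 0.16 in selumetinib positive libraries. DUSP6, a target gene of the ERK pathway below MEK, had 11.35 ± 0.04 and 10.61 ± 0.07 in the untreated negative and positive libraries, against 9.60 ± 0.19 and 9.55 ± 0.48 under selumetinib. CCNB1 was higher in the libraries described as positive, and DUSP6 was lower in those described as treated. Under the titles, the response given below for CCNB1-negative cells would belong to CCNB1-positive cells, with each sign turned round, and the other way about.

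The untreated libraries held 19114877 to 23916160 reads on genes and the selumetinib libraries 12696860 to 19976635. The share of reads on MALAT1, a nuclear RNA, was 0.30 to 0.39% in untreated and 2.01 to 4.42% in selumetinib libraries, and that on mitochondrial genes was 4.44 to 7.80% and 11.92 to 14.79%. These shares moved with the treatment, and their part in the results below was not tested. The epithelial markers EPCAM, CDH1, KRT8, KRT18, KRT19, KRT20, VIL1 and LGALS4 were each above 100 RPM (reads-per-million of the reads on genes) in every library, whereas the intestinal factors CDX1 and CDX2 reached only 2.43 and 6.81 RPM. Markers of leukocytes, endothelium and fibroblasts stayed at or below 5.36 RPM.

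In intestinal and other epithelia, the pair of ITGA6 and ITGB4 binds laminin of the basement membrane and anchors keratin filaments in hemidesmosomes. ITGB1 is the shared partner of ITGA2, a collagen receptor subunit, ITGA3, a laminin receptor subunit, and ITGAV, which also pairs with ITGB5 and ITGB6 to bind RGD motifs in fibronectin, vitronectin and the latency peptide of TGF-beta. TNS3 binds both actin and beta tails, while TNS4, also called CTEN, lacks the actin-binding part of the other tensins and is known to be induced by growth factor signalling.

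The reference sequences around the start sites are shown first for the 5 genes with a window whose mRNA differed by about 2-fold or more with the drug in at least one fraction, so that the genes with higher and lower mRNA can be read side by side. Each window runs from 250 bases before to 50 after a RefSeq start site (GRCh38.p14), 5′ to 3′ in the direction of the gene. Capitals mark the ETS core GGAAG and the GC box GGGCGG on either strand, and in ITGB5 the first ETS core and GC box overlap by 2 bases. TNS3 and ITGB6 had more mRNA under selumetinib, and ITGB1, ITGA6 and ITGB5 had less.

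TNS3, chr7:47582537-47582836, minus strand: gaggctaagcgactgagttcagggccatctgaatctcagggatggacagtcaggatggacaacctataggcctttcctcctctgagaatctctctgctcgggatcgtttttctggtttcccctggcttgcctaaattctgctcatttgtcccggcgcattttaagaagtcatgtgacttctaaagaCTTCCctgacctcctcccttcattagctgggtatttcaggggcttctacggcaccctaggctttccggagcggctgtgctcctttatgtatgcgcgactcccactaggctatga
ITGB6, chr2:160200223-160200522, minus strand: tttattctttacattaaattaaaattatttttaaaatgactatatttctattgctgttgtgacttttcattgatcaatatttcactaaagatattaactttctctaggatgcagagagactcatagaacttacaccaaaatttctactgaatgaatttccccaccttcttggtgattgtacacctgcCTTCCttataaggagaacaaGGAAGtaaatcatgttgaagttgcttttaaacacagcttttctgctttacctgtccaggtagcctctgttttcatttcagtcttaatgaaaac
ITGB1, chr10:32958181-32958480, minus strand: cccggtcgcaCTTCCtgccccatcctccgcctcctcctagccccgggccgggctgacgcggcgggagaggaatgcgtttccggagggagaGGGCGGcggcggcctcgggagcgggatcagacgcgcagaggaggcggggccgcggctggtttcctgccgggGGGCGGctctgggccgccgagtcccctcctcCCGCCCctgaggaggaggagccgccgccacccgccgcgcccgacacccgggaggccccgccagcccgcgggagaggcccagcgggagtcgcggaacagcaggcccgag
ITGA6, chr2:172427086-172427385, plus strand: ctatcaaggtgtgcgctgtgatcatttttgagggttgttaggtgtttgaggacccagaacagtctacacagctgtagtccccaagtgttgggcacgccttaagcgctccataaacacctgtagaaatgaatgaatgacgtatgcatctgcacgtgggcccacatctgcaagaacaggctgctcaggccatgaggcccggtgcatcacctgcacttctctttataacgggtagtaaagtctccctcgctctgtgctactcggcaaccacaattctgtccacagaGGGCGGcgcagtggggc
ITGB5, chr3:124901369-124901668, minus strand: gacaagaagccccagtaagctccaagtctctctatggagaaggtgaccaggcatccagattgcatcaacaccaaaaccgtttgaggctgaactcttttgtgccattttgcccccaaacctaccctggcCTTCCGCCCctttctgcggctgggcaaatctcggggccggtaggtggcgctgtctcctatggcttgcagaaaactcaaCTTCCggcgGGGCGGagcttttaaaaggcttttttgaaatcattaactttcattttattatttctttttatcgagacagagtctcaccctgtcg

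Windows were found for 7 of the 10 genes (those above with ITGA2 and ITGAV). The ETS core was present in 5 of the 7, ITGAV, ITGB1, ITGB5, ITGB6 and TNS3, and in 71.9% of all 35116 windows of this length. The GC box was present in 4 of the 7, ITGA2, ITGA6, ITGB1 and ITGB5, and in 45.0% of all windows. The AP-1 motif TGANTCA was in none of the 7 windows and in 7.7% of all. Of the 5 windows printed, the 3 of genes with less mRNA held a GC box and the 2 of genes with more did not. These windows were chosen by the response of their genes. Of the genes not called, ITGA2 held 4 GC boxes and ITGAV 0. A link between the GC box and the direction of the response was not tested. These are matches of letters in 1 window per gene, the one nearest to the gene's outermost start in the deposited table. Genes can have several start sites: TNS3 and ITGB5 had 3 windows each, and ITGB1, ITGA6 and ITGAV had 2 each. The windows not used were not compared. The ITGB1 window lies 47562 bases from the outermost start of that gene.

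The log2 value used below is the log2 of a gene's reads after scaling each library to the largest one, so that 4.58 stands for 1 RPM. A log2 difference comes from a limma fit of all 8 libraries and is given with its standard error (SE). A gene is called when its p-value, adjusted over all 14219 genes tested, is under 0.05. In these bulk libraries, fewer cells carrying an mRNA and less of it per cell cannot be told apart.

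**Figure D1:**
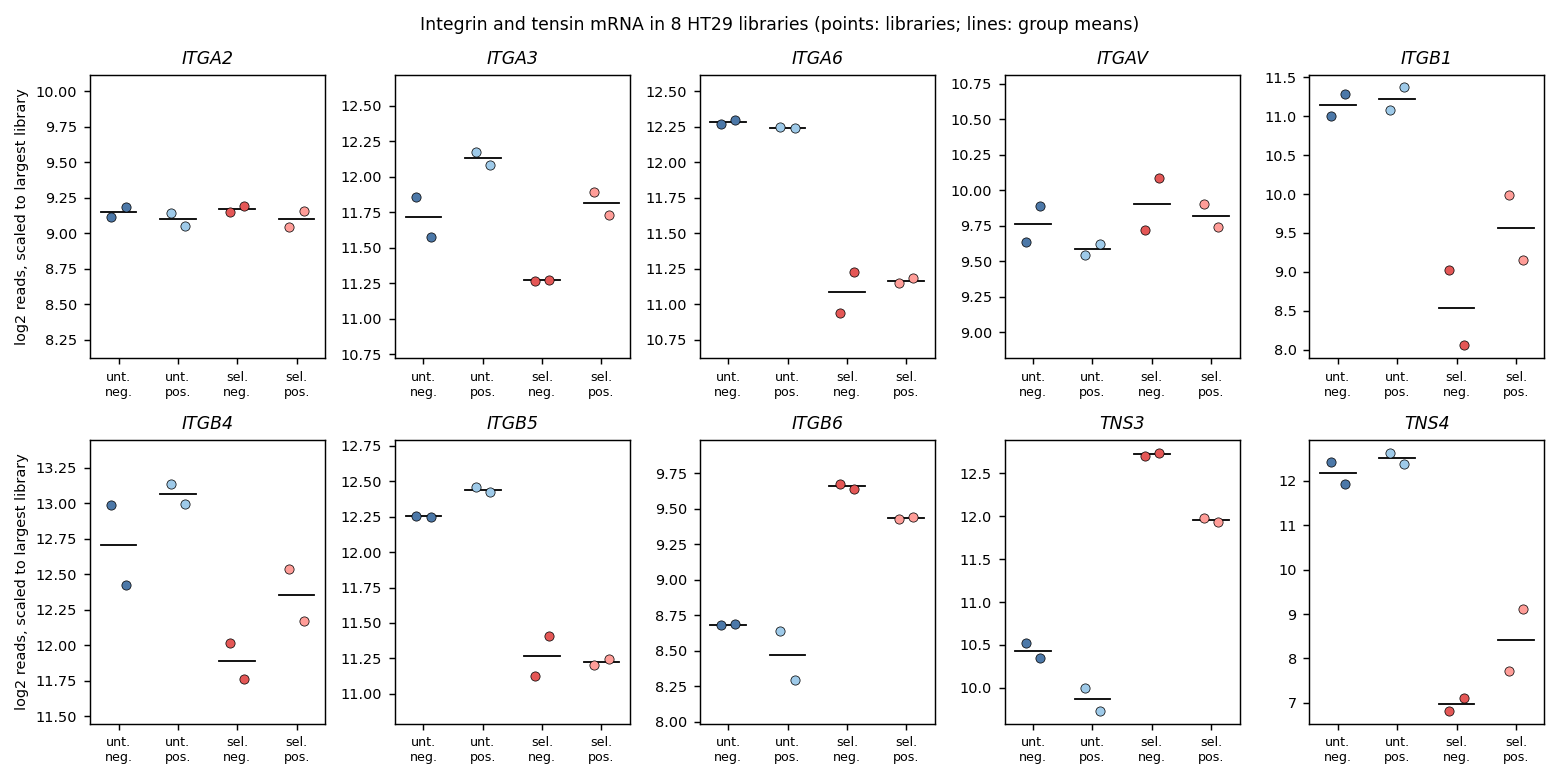
Log2 values of the 10 genes in the 8 libraries, 1 panel per gene, with the groups on the x axis (unt., untreated; sel., selumetinib; neg. and pos., CCNB1-negative and CCNB1-positive). Points are libraries, lines are means of 2, and each panel has its own y range; TNS4 lies at 11.93 to 12.64 in untreated and 6.82 to 9.11 in selumetinib libraries, and TNS3 shows the opposite order.

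Under selumetinib, the CCNB1-negative fraction had 2 of the 10 genes called higher and 6 lower, where 38.2% of all genes tested were called higher and 35.8% lower. In CCNB1-positive cells, 2 were called higher and 5 lower, against 38.0% and 27.3% of all genes. Nothing is read from these counts, since the genes were listed with the same values in view. The median log2 difference of the 10 was -0.63 in the negative and -0.51 in the positive fraction, beside 0.05 and 0.17 over all genes. Under quantile normalization the median of all genes moved to -0.08 and -0.07, and the share of called genes that were higher in CCNB1-positive cells went from 58.1% to 47.5%. ITGA3 in CCNB1-negative cells and ITGB4 in both fractions were no longer called under that scaling. The calls of the other genes, and the direction of all 10 where called, were kept under it.

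TNS4, the tensin without the actin-binding part, differed most with the drug. Its gene lies on the minus strand of chromosome 17, bases 40475828 to 40501623 (GRCh38). Untreated libraries gave log2 values of 12.43 and 11.93 in the negative and 12.64 and 12.38 in the positive fraction. Selumetinib libraries gave 6.82 and 7.12 in the negative and 7.71 and 9.11 in the positive fraction. The treated and untreated libraries did not overlap in either fraction, and the 2 selumetinib positive libraries stood far apart from each other. In reads, the untreated libraries held 3105 to 6363 TNS4 reads and the selumetinib libraries 72, 82, 186 and 351.

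The TNS4 log2 difference was -5.21 ± 0.32 (SE), 37.1-fold lower, in CCNB1-negative cells, and only 2 of the 14219 genes had a lower value. In CCNB1-positive cells it was -4.10 ± 0.32, 17.1-fold lower, with 1 gene lower. That second value rests in part on which library is kept, being -3.39 without selumetinib positive replicate 1 and -4.80 without replicate 2.

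TNS3, the actin-binding tensin, moved the other way. Its gene spans bases 47275154 to 47582558 on the minus strand of chromosome 7. Log2 values were 10.52 and 10.35 in untreated negative and 10.004 and 9.74 in untreated positive libraries. They were 12.70 and 12.74 in selumetinib negative and 11.98 and 11.93 in selumetinib positive libraries. Every treated library lay above every untreated one, and within each treatment the negative fraction lay above the positive. The log2 difference was 2.28 ± 0.15, 4.87-fold higher, in CCNB1-negative and 2.08 ± 0.15, 4.24-fold higher, in CCNB1-positive cells, with 1152 and 1089 of the 14219 genes above it.

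The 2 tensins therefore traded places. Per length of the longest transcript, TNS3 made up 7.72 to 14.8% of the sum of TNS3 and TNS4 in the 4 untreated libraries. In the selumetinib libraries it made up 96.8 and 96.2% in the negative fraction and 90.9 and 78.7% in the positive. The lowest treated share is that of selumetinib positive replicate 2, the library with the most TNS4 reads under the drug. The remaining family members, TNS1 and TNS2, also join beta tails to actin and both rose. TNS1 rose in the negative fraction by 1.40 ± 0.37 on the log2 scale and in the positive by 1.62 ± 0.37 (adjusted p = 0.0034 and 0.0016), although the first call was lost without selumetinib negative replicate 1 (log2 difference 0.98, adjusted p = 0.061). TNS2 rose by 0.94 ± 0.20 and 1.06 ± 0.20 (adjusted p = 0.00085 and 0.00046). TNS2 shares exons with TNS2-AS1 and SPRYD3 on the opposite strand, whose reads reached 165% and 337% of those of TNS2 in a library. The library kit kept strand, but how the counting used it is not given in the sources used here, so the TNS2 values are uncertain.

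**Figure D2:**
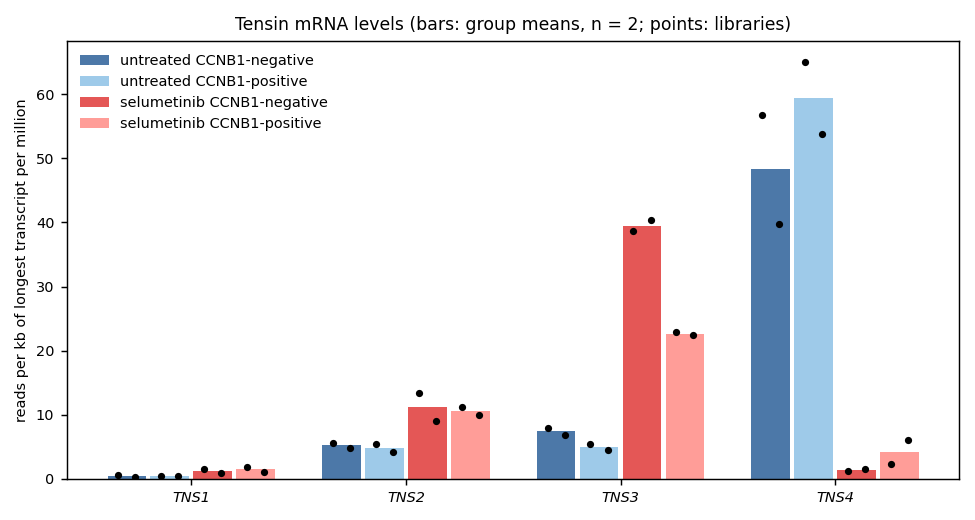
Levels of the 4 tensin mRNAs in RPM per kilobase of the longest transcript; bars are group means of 2 libraries and points are libraries. TNS4 is the highest tensin in both untreated groups and falls below TNS3 and TNS2 in both selumetinib groups, where TNS3 is highest.

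ITGB1, the common beta chain of collagen, laminin and fibronectin receptors, had the largest difference of the 4 beta subunits followed here. Its gene lies at bases 32900318 to 33005792 of chromosome 10, minus strand. Log2 values were 11.00 and 11.29 in untreated negative and 11.07 and 11.37 in untreated positive libraries. Under selumetinib they were 9.03 and 8.06 in the negative and 9.98 and 9.15 in the positive fraction. All 4 treated libraries lay below all 4 untreated ones, but replicates within each treated group differed by 0.97 and 0.83. The counts behind them were 1890 to 2413 reads untreated and 333, 157, 900 and 361 reads treated. The log2 difference was -2.60 ± 0.29, 6.07-fold lower, in CCNB1-negative and -1.65 ± 0.29, 3.14-fold lower, in CCNB1-positive cells, with 332 and 278 genes of all those tested below it. The opposite-strand transcript ITGB1-DT shares 3 exons with it and held at most 53 reads in a library, 11.5% of the ITGB1 reads at most.

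ITGB5 pairs with ITGAV in a vitronectin receptor, and its gene lies at bases 124761948 to 124901418 of chromosome 3, minus strand. Log2 values were 12.26 and 12.25 in untreated negative, 12.46 and 12.42 in untreated positive, 11.12 and 11.41 in selumetinib negative and 11.20 and 11.25 in selumetinib positive libraries. The treated values all lay below the untreated ones. ITGB5 thus had a log2 difference of -0.99 ± 0.14, 1.98-fold lower, in CCNB1-negative and -1.21 ± 0.14, 2.32-fold lower, in CCNB1-positive cells.

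ITGB4, the hemidesmosome beta chain, lies at bases 75721328 to 75757818 of chromosome 17, plus strand. Log2 values were 12.98 and 12.42 in untreated negative, 13.13 and 12.99 in untreated positive, 12.02 and 11.76 in selumetinib negative and 12.53 and 12.17 in selumetinib positive libraries. Treated libraries lay below untreated ones within each fraction, but untreated negative replicate 2 lay below selumetinib positive replicate 1. The log2 difference was -0.82 ± 0.20 in the negative and -0.71 ± 0.20 in the positive fraction. The call in CCNB1-positive cells was lost without selumetinib positive replicate 2, where the log2 difference was -0.53.

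ITGB6 was the single beta subunit of the 4 with more mRNA under the drug. It pairs with ITGAV in an epithelial receptor that binds and activates latent TGF-beta, and its gene lies at bases 160099667 to 160200313 of chromosome 2, minus strand. Log2 values were 8.68 and 8.69 in untreated negative, 8.64 and 8.30 in untreated positive, 9.68 and 9.64 in selumetinib negative and 9.43 and 9.44 in selumetinib positive libraries. The treated libraries all lay above the untreated ones. The log2 difference was 0.97 ± 0.17 in both fractions, 1.96-fold and 1.95-fold higher. An unnamed long non-coding RNA gene on the same strand shares 6 of its exons with ITGB6 and reached 56.7% of the ITGB6 reads in a library, so reads of the 2 genes can be split between them and the ITGB6 values are uncertain.

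ITGA6, the laminin-binding partner of ITGB4 and ITGB1, had the largest difference of the 4 alpha subunits followed here. Its gene lies at bases 172427354 to 172506459 of chromosome 2, plus strand. Log2 values were 12.27 and 12.30 in untreated negative, 12.25 and 12.24 in untreated positive, 10.94 and 11.22 in selumetinib negative and 11.15 and 11.18 in selumetinib positive libraries. The treated libraries all lay below the untreated ones, whose 4 values differed by less than 0.1. ITGA6 had a log2 difference of -1.20 ± 0.14, 2.29-fold lower, in CCNB1-negative and -1.08 ± 0.14, 2.11-fold lower, in CCNB1-positive cells.

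ITGA3, at bases 50055968 to 50090481 of chromosome 17, plus strand, pairs with ITGB1 in a laminin receptor. Log2 values were 11.86 and 11.58 in untreated negative, 12.18 and 12.08 in untreated positive, 11.26 and 11.28 in selumetinib negative and 11.90 and 11.74 in selumetinib positive libraries. Treated libraries lay below untreated ones within each fraction, while the selumetinib positive values overlapped the untreated negative ones. In CCNB1-negative cells the log2 difference was -0.45 ± 0.15, a call lost without untreated negative replicate 1 (-0.31) and in a fit of the recovered reads with limma-voom (-0.31). It was -0.32 ± 0.15, not called, in CCNB1-positive cells.

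ITGA2 and ITGAV were not called in either fraction. ITGA2, the collagen receptor alpha chain at bases 52989340 to 53094779 of chromosome 5, plus strand, had log2 values from 9.04 to 9.19 over all 8 libraries, with treated and untreated libraries interleaved. Its log2 difference was 0.02 ± 0.15 in the negative and 0.00 ± 0.15 in the positive fraction. ITGAV, the alpha chain of the RGD-binding receptors at bases 186590056 to 186680901 of chromosome 2, plus strand, had 9.64 and 9.89 in untreated negative, 9.54 and 9.62 in untreated positive, 9.72 and 10.09 in selumetinib negative and 9.90 and 9.74 in selumetinib positive libraries. Treated values overlapped the untreated ones in the negative fraction and lay above them in the positive. Its log2 difference was 0.14 ± 0.17 and 0.24 ± 0.17. Of the chains that pair with ITGAV, ITGB1 and ITGB5 thus had less mRNA and ITGB6 more, beside an ITGAV difference within 2 SE of 0.

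**Figure D3:**
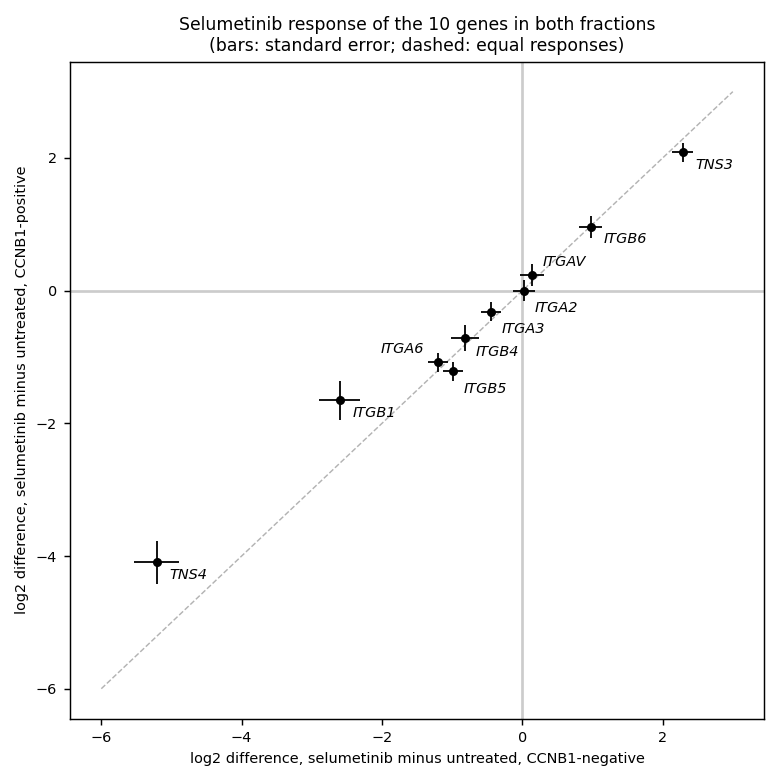
Log2 difference between selumetinib and untreated libraries for each of the 10 genes, in CCNB1-negative (x axis) and CCNB1-positive cells (y axis); bars are standard errors and the dashed line marks equal responses. TNS4 and ITGB1 lie farthest into the lower left, above the line, TNS3 and ITGB6 lie in the upper right, and ITGA2 and ITGAV lie near 0.

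The fractions were compared within each treatment. In untreated cells none of the 10 genes was called, where 1.36% of all genes were called higher in the CCNB1-positive fraction and 1.51% lower. At an unadjusted p under 0.05, 2 of the 10 passed in limma, where 13.5% of all genes did, and limma-voom on the recovered reads called 0 as well. Among called genes, 47.5% were higher in the positive fraction, or 64.8% after quantile normalization. TNS3 had the largest difference of the 10, with both positive libraries below both negative ones and a log2 difference of -0.56 ± 0.15. It was called when either selumetinib negative library was left out of the shared fit. ITGA3 had a log2 difference of 0.41 ± 0.15, with both positive libraries above both negative ones.

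Under selumetinib, 3 of the 10 genes were called higher in CCNB1-positive cells and 1 lower, where 13.8% of all genes were called higher and 7.87% lower. TNS4 had a log2 difference of 1.44 ± 0.32, 2.71-fold higher. Its 4 libraries did not overlap, but without selumetinib positive replicate 2 the value was 0.74 and the call was lost. ITGB1 had 1.02 ± 0.29, 2.03-fold higher, again without overlap, and was no longer called without selumetinib negative replicate 2 (0.54) or selumetinib positive replicate 1 (0.61). ITGA3 had 0.55 ± 0.15, and its call was lost without either selumetinib positive library or without selumetinib negative replicate 2, with values of 0.46 to 0.63. TNS3 was lower in CCNB1-positive cells by a log2 difference of -0.76 ± 0.15 and kept its call without each library. Among all called genes, 63.6% were higher in the positive fraction, or 47.9% after quantile normalization and 50% with limma-voom.

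The response in CCNB1-positive cells minus that in CCNB1-negative cells was fitted as an interaction. None of the 10 genes was called by limma or limma-voom, where 4.99% of all genes were called with a more positive response in CCNB1-positive cells and 0.345% with a more negative one. Among those, 93.5% were more positive, or 70.9% after quantile normalization. At an unadjusted p under 0.05, 2 of the 10 passed, beside 20.1% of all genes. TNS4 had a difference of responses of 1.12 ± 0.46 and ITGB1 of 0.95 ± 0.41. TNS4 was called without selumetinib positive replicate 1 (1.82) and ITGB1 without selumetinib negative replicate 1 (1.44), while without selumetinib positive replicate 2 the TNS4 value was 0.42 and without selumetinib negative replicate 2 the ITGB1 value was 0.46. The other 8 genes had differences of -0.23 to 0.13.

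Levels of different genes can be compared only per length, here in RPM per kilobase of merged exons (RPKM), given as mean ± SD of 2 libraries. Whether the deposited counts cover exons alone or whole gene bodies is not given in the sources used here, so these levels depend on that choice. In untreated negative libraries, ITGB4 at 42.1 ± 11.8 and TNS4 at 40.5 ± 10.1 came first and did not differ beyond their spread. ITGB5 at 31.3 ± 0.4 and ITGA6 at 31.1 ± 0.2 followed, again level with each other and within the spread of ITGB4 and TNS4. ITGA3 stood at 14.4 ± 2.1, ITGB1 at 6.53 ± 0.87 and TNS3 at 4.60 ± 0.42. ITGA2 at 3.00 ± 0.08 and ITGB6 at 2.97 ± 0.02 did not differ beyond their spread, and ITGAV was lowest at 1.89 ± 0.22. The hemidesmosome pair ITGA6 and ITGB4, with TNS4 and ITGB5, thus made up the upper end of the list.

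In selumetinib negative libraries, per merged exons, ITGB4 remained first at 25.9 ± 2.9, with TNS3 at 24.6 ± 0.8 beside it within the spread. ITGB5 at 17.5 ± 2.7 and ITGA6 at 15.0 ± 2.3 overlapped, and ITGA3 followed at 11.6 ± 0.2. ITGB6 stood at 6.43 ± 0.02, ITGA2 at 3.35 ± 0.12 and ITGAV at 2.30 ± 0.44. ITGB1 at 1.24 ± 0.56 and TNS4 at 1.19 ± 0.19 were lowest and did not differ beyond their spread. ITGB6 was thus above ITGB1 in treated negative cells, with the reverse order in untreated cells. With the longest transcript in place of merged exons, ITGB1 stands at 16.9 and not 6.53, and ITGAV at 4.59 and not 1.89, in untreated negative libraries, because their merged exons of 14561 and 19336 bases are far longer than their longest transcripts of 5614 and 7951 bases. The lowest of the 10 there is then ITGA2 at 3.02 ± 0.08 and not ITGAV. In the same libraries ITGB5 at 45.9 ± 0.7 then stands beside TNS4 at 48.3 ± 12.1 and ITGB4 at 48.2 ± 13.5, within their spread. In selumetinib negative libraries TNS3 is then first at 39.5 ± 1.3, above ITGB4 at 29.7 ± 3.3 beyond their spread.

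**Figure D4:**
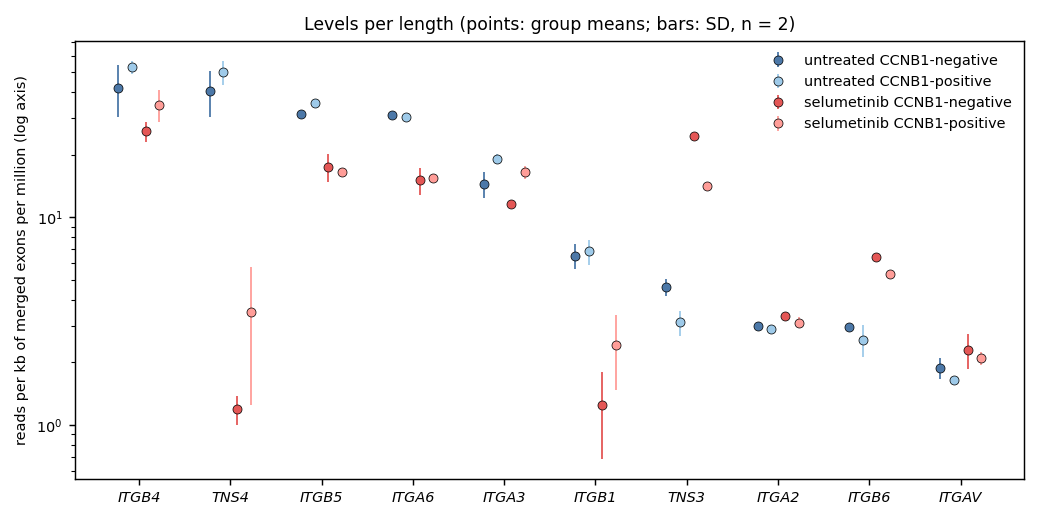
Levels of the 10 genes in RPKM on a log axis, ordered by their mean in untreated negative libraries; points are group means and bars the SD of 2 libraries. TNS4 goes from 40.5 to 1.19 RPKM between untreated and selumetinib negative libraries, and TNS3 from 4.60 to 24.6.

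For each of the 10 genes, the tested gene with the most similar profile was found by the root mean square distance between mean-centred log2 values over the 8 libraries. CLDN2, a claudin of tight junctions, was nearest to TNS4, at a distance of 0.30, and no gene lay within 0.25 of it. TRPS1, a transcription factor, was nearest to TNS3, at 0.07, and 214 genes lay within 0.25. PIGY was nearest to ITGB1, at 0.17, with 18 genes within 0.25. The flat profile of ITGA2 was nearest to that of IPO13, at 0.04, and 2284 genes lay within 0.25 of it. The remaining nearest genes were NETO2 for ITGA6, AKAP11 for ITGA3, SPPL2A for ITGAV, STRN4 for ITGB4, SULF2 for ITGB5 and WDR19 for ITGB6, at 0.05 to 0.08. TNS4 and ITGB1 therefore had few neighbours over these libraries, TNS3 had more, and the remaining genes had 650 to 2284. The distance is in log2 units with a fixed limit. Genes with large differences or a wide spread between replicates thus tend to have few neighbours, and nothing further is read from these numbers.

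The wider adhesion machinery was read from 8 lists of 75 other genes, of which 51 passed the filter on low values. These lists were also drawn up with earlier results of these data known. Every tested integrin chain is named below, and from the other lists mainly the genes with the largest differences. Their adjusted p-values therefore describe these libraries and are not an independent test. In CCNB1-negative cells 22 of the 51 rose and 20 fell, and in CCNB1-positive cells 18 rose and 15 fell, beside the shares of all genes given above. The median log2 difference of the 51 was 0.17 and 0.13, against 0.05 and 0.17 for all genes.

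Of the other integrin subunits, 3 of 14 alpha and 2 of 4 beta chains were tested. ITGA1, a collagen receptor chain, rose in the negative fraction by 1.26 ± 0.15 on the log2 scale and in the positive by 1.01 ± 0.15 (adjusted p = 4e-06 and 5.7e-05). This contrasts with the values of ITGA2, another collagen receptor chain. PELO lies within the ITGA1 gene, shares 2 exons with it and reached 66.0% of its reads. ITGB8, a partner of ITGAV that also binds latent TGF-beta, rose by 0.97 ± 0.19 and 1.37 ± 0.19 (adjusted p = 0.00039 and 3.5e-05), and its antisense gene ITGB8-AS1 reached 22.5% of its reads. ITGB7, a leukocyte chain, fell by 1.57 and 0.98 (SE 0.23; adjusted p = 2.6e-05 and 0.0018). ITGAE, its partner, fell by 0.97 in CCNB1-negative cells (adjusted p = 0.00018) and had a log2 difference of -0.30 in CCNB1-positive cells (adjusted p = 0.14), and HASPIN on the opposite strand shares an exon with it and reached 28.2% of its reads. ITGA7 rose by 1.86 ± 0.38 and 1.51 ± 0.38 (adjusted p = 0.00052 and 0.0032), but not after quantile normalization (adjusted p = 0.093 and 0.51). Both ITGA7 and ITGB7 share exons with opposite-strand genes of far more reads, BLOC1S1 and ZNF740, and their values are uncertain.

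Extracellular ligands, mostly laminin chains, gave 6 of 11 tested genes higher and 2 lower in CCNB1-negative cells, and 5 higher and none lower in CCNB1-positive cells, where limma at an unadjusted p under 0.05 also passed 5. Over all genes 38.2% were higher and 35.8% lower in the negative fraction and 38.0% and 27.3% in the positive. LAMB2, a laminin beta chain, rose by 2.74 ± 0.24 and 2.50 ± 0.24 (adjusted p = 2.2e-07 and 1.6e-06). LAMA5, an alpha chain of the intestinal basement membrane, rose by 1.04 ± 0.20 and 0.73 ± 0.20 (adjusted p = 0.00034 and 0.006), the second call being lost without untreated positive replicate 2 (0.41) or selumetinib positive replicate 1 (0.59). It shares exons with ADRM1 on the opposite strand, which reached 293% of its reads. LAMB3, a chain of the hemidesmosome laminin, rose by 0.61 ± 0.19 and 0.93 ± 0.19 (adjusted p = 0.011 and 0.00082), the first call being lost without untreated negative replicate 2 (0.42) or selumetinib negative replicate 1 (0.41). The laminin chains named rose while the laminin receptor chains ITGA6, ITGB4 and ITGB1 had less mRNA.

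Hemidesmosome and tetraspanin partners gave 4 of 5 genes lower in CCNB1-negative and 3 of 5 in CCNB1-positive cells, and none higher, where 35.8% and 27.3% of all genes were lower. At an unadjusted p under 0.05 limma passed 4 and 3 of the 5, beside 75.8% and 68.5% of all genes. COL17A1, a transmembrane collagen of hemidesmosomes, fell by 1.88 and 1.28 (SE 0.16; adjusted p = 1.5e-07 and 1.1e-05). CD9, a tetraspanin that associates with integrins, fell by 1.86 and 0.88 (SE 0.26; adjusted p = 2e-05 and 0.0092). The second CD9 call was lost after quantile normalization (-0.66) and without untreated positive replicate 2 (-0.70) or selumetinib positive replicate 2 (-0.51). PLEC, the plectin that links ITGB4 to keratin, fell by 0.86 and 0.72 (SE 0.25; adjusted p = 0.0073 and 0.022). Neither PLEC call held after quantile normalization (-0.51 and -0.30), and each was lost without one untreated or one selumetinib library of its fraction, with log2 differences of -0.46 to -0.58.

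Talin, kindlin and actin linkers, which couple beta tails to actin, gave 3 of 10 genes higher and 7 lower in CCNB1-negative cells, and 2 higher and 7 lower in CCNB1-positive cells. Over all genes, 38.2% were higher and 35.8% lower in the negative fraction, and 38.0% and 27.3% in the positive. TLN2, the less widely expressed talin, rose by 2.40 ± 0.23 and 1.77 ± 0.23 (adjusted p = 5.6e-07 and 2e-05). The other talin, TLN1, was called lower, with log2 differences of -0.72 and -0.64 (SE 0.24; adjusted p = 0.013 and 0.03). How these TLN1 calls fared under the alternatives is not given here. TLN1 had the higher level per merged exons in all 4 groups, with 9.63 RPKM against 0.255 for TLN2 in untreated negative libraries. FLNA, a filamin that crosslinks actin, fell by 2.11 and 1.27 (SE 0.26; adjusted p = 6.6e-06 and 0.00084). FERMT1, the kindlin of epithelia, fell by 1.29 and 1.21 (SE 0.15; adjusted p = 4.2e-06 and 1.5e-05). Adhesion kinases and adaptors gave 7 of 15 higher and 4 lower in CCNB1-negative cells, and 5 higher and 3 lower in CCNB1-positive cells. Those counts stand beside the same shares of all genes, and nothing is read from them.

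In that last list, ITGB1BP1, which binds the tail of ITGB1 and restrains its activation, fell by 1.76 and 1.17 (SE 0.16; adjusted p = 3e-07 and 2.5e-05). It shares exons with ASAP2 on the opposite strand, whose reads reached 788% of its own. PTK2, the focal adhesion kinase, rose by 1.53 ± 0.17 and 0.89 ± 0.17 (adjusted p = 2.9e-06 and 0.00053). PARVB, a parvin that binds actin, rose by 1.42 ± 0.43 and 1.56 ± 0.43 (adjusted p = 0.0084 and 0.0059), neither call holding after quantile normalization (0.30 and 0.22) or without selumetinib negative replicate 1 (0.95) and selumetinib positive replicate 2 (1.29) respectively. PARVB held only 14 to 62 reads in a library. SAMM50 overlaps it on the same strand without shared exons and reached 7821% of its reads, so the PARVB values are uncertain. In the latent TGF-beta list of 3 tested genes, LTBP1, which stores latent TGF-beta in the matrix, rose by 1.15 ± 0.26 and 1.55 ± 0.26 (adjusted p = 0.00099 and 0.00014), falling short after quantile normalization (adjusted p = 0.058 and 0.053). TGFB1, the ligand that ITGB6 receptors activate, fell by 0.90 and 0.66 (SE 0.23; adjusted p = 0.0031 and 0.022). The second TGFB1 call was lost without untreated positive replicate 1 or either selumetinib positive library (-0.58 to -0.70), and TGFB1 shares exons with the far more abundant HNRNPUL1 on the opposite strand.

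**Figure D5:**
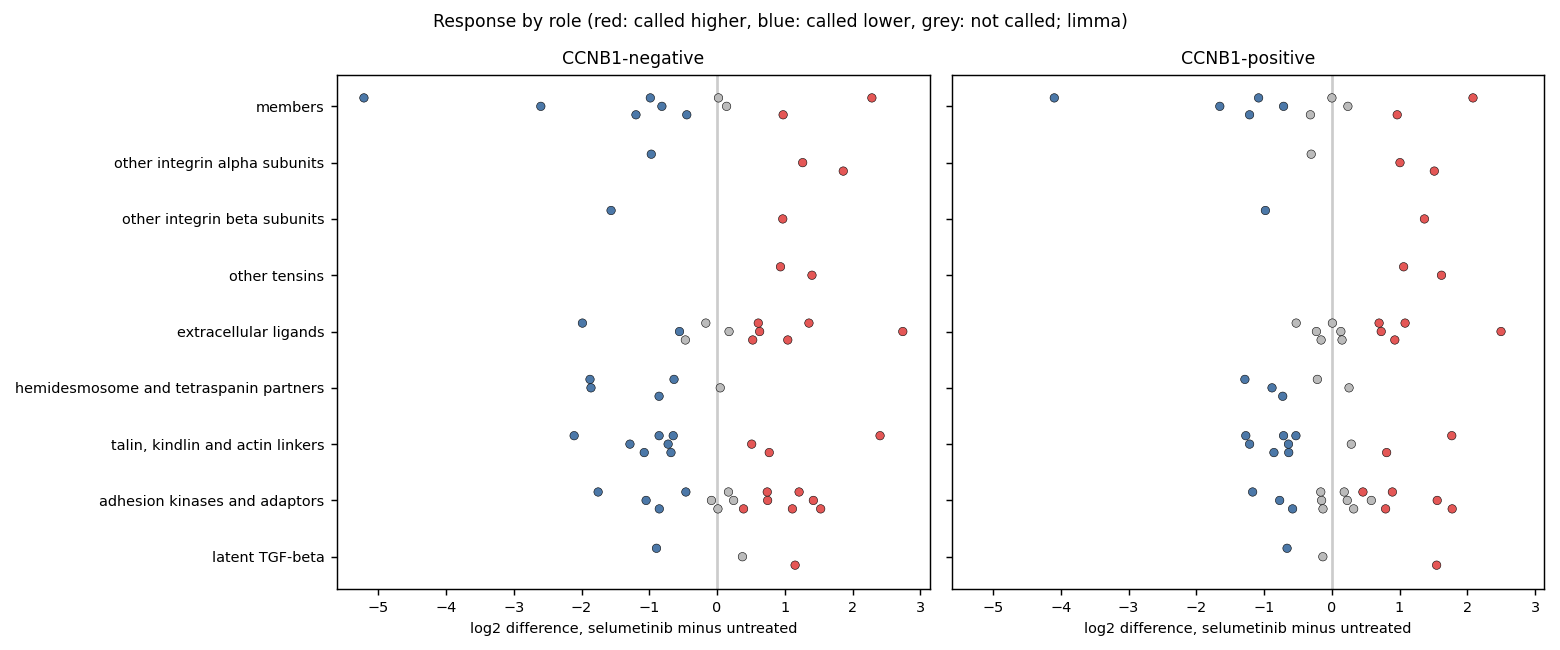
Log2 difference between selumetinib and untreated libraries for the 10 genes (top row) and the tested genes of the 8 adhesion lists, in CCNB1-negative (left) and CCNB1-positive cells (right); each point is a gene, red if called higher, blue if called lower and grey if not called by limma. Among all genes tested, 38.2% and 38.0% were called higher and 35.8% and 27.3% lower, in that order of panels.

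Between fractions, the same lists gave 1 of 51 genes in untreated cells, NEDD9, a scaffold of adhesion kinases named here after its values were seen, which was lower in CCNB1-positive cells by a log2 difference of -1.13 ± 0.16 (adjusted p = 0.001). Under selumetinib, the CCNB1-positive fraction had 10 of the 51 higher and 2 lower, where 13.8% of all genes were higher and 7.87% lower. Of the hemidesmosome and tetraspanin partners, 3 of 5 were higher, among them COL17A1 at 0.86 ± 0.16 (adjusted p = 0.0017) and CD9 at 0.92 ± 0.26 (adjusted p = 0.024). The number called among the 51 fell far below 12 without selumetinib negative replicate 2 or selumetinib positive replicate 1. It rose above 12 without selumetinib negative replicate 1. None of the 51 had a called difference of responses in limma or limma-voom, and 10 passed at an unadjusted p under 0.05, where 20.1% of all genes did.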

How the data were processed

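HT29 libraries of polyadenylated RNA from sorted cells were made by the authors with a directional kit and aligned to GRCh38 with HISAT2 2.1.0 after trimming with Trim Galore 0.5.0 (submitters' processing notes). The deposited table holds log2 values that the authors made in SeqMonk, scaled to the largest library (23916160 reads on genes). Whole reads came back, within 0.05 of a read, for 99.97 to 99.98% of the genes with reads, and a gene without reads is entered as 0.9 reads. Reads carry no molecular identifiers, so read numbers give counting precision only. All 8 value columns were used and 0 left out. Of the gene identifiers, 99.3% are in GENCODE release 44, which gave exon lengths and overlaps.

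The 14219 genes whose mean reached 1 RPM were fitted with limma 3.58.1 in R 4.3.3, with a mean-variance trend, 1 coefficient for each of the 4 groups and Benjamini-Hochberg adjustment over all of them, and called at adjusted p under 0.05. The study's own test, DESeq2, was not used here, since the deposited values are on a log scale, and limma-voom on the recovered reads served as the alternative based on counts. On simulated data (14920 genes, 200 changed, CCNB1-negative response) the fit found 98% of 4-fold and 85% of 2-fold changes, with 15 false among 198 calls. The simulated libraries were independent, and all genes had the same spread beyond counting noise. In the real libraries far more genes differed and the spread varied between genes, so these rates need not hold there. Replicates differed by more than counting noise (chi-square per gene 19.8 to 35.8), so no pair was treated as a duplicate deposit of one library, which does not show that they came from separate cultures.

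The 10 genes and the adhesion lists were chosen with earlier results of these data known. The genes named are all 10, every tested non-member integrin and tensin, from each other list up to 3 with the largest difference in CCNB1-negative cells among those called alike in both fractions, any gene with a called interaction, and the nearest profile for each of the 10. TLN1 was named in addition, beside TLN2, after its values were seen. Alternatives were no filter, a 10 RPM filter, a pseudocount of 0.1 RPM, quantile normalization, limma-voom on recovered reads, adjusted p under 0.01, at least 2-fold, only the groups compared, the replicate number as a block, and each library left out. Promoter windows are from the RefSeq table of GRCh38.p14, with none used for ITGA3, ITGB4 and TNS4. Protein sequences were not used here. The labels name RPMI-1640 medium and the study's methods another medium for HT29.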

Additional observations from a re-analysis of the deposited data

How the results depend on the processing

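Across the alternatives, 691 of 740 refitted log2 differences of the 10 genes moved by less than the spread between replicates and none of those called changed sign. Of the genes of the adhesion lists, 3980 values kept their direction and side of the threshold, 185 lost and 55 gained a call, and 4 reversed, all under quantile normalization: ACTN4 at 0.14 in the negative and 0.12 in the positive fraction, and LAMA2 at -1.11 and FERMT3 at -0.004 in the latter. The cause was not tested. Quantile normalization left 6 of the 10 called in each selumetinib response. Requiring at least 2-fold left 4 of the 10 and 21 of the 42 other adhesion genes in CCNB1-negative cells, 15 of the 33 others in CCNB1-positive cells, and 2 of the 4 and 3 of the 12 between selumetinib fractions, by its own construction. At adjusted p under 0.01 the last 2 counts were 2 and 4. Leaving out each library gave 0 to 1 of the 10 between untreated fractions, 2 to 4 between selumetinib fractions (1 to 19 of the other genes) and 0 to 1 for the difference of responses (0 to 4 of the others). Samples with the same replicate number deviated together between the fractions of a treatment (correlation across genes 0.35 untreated, 0.43 selumetinib) and not otherwise (-0.09 to 0.08), but nothing says that they share a culture. With the replicate block, 8 of the 10 were called in each selumetinib response, 1 (TNS3) between untreated fractions, 5 between selumetinib fractions (ITGB4 gained) and 0 for the difference of responses; of the other adhesion genes, 42, 35, 1, 17 and 1 were called. The ratio of the highest to the lowest level per length in untreated negative libraries was 22.3, or 16.0 per longest transcript. The lowest libraries held 157 reads for ITGB1 and 72 for TNS4.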
